A study of Homo sapiens with 4 samples.

Results

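This account covers 9 human genes. Their products release, process and activate the transcription factor NRF1, carry ubiquitinated proteins to the proteasome, or trim ubiquitin from them there. The genes were chosen by name from what is known of the route, not by a threshold on these values: NFE2L1, DDI2, NGLY1, VCP, NPLOC4, UFD1, RAD23B, UBQLN1 and USP14. Earlier results of these data were known when they were chosen. All 9 were found by Ensembl gene ID among the 15201 genes of the deposited table, and all 9 passed the filter on low values that left 13411 genes for testing. The libraries come from ARP-1, an established human multiple myeloma line. The labels name 2 libraries of wild-type cells (WT) and 2 of cells resistant to carfilzomib (CfzR), a drug that blocks the proteasome. All 4 carry the same cell line and cell type labels. How resistance was selected, whether the resistant cells are a clone, and whether the drug was present at harvest are not stated in the labels.

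NRF1, the product of NFE2L1, is made as a membrane protein of the endoplasmic reticulum (ER) and is normally pulled out and destroyed. The VCP ATPase with its NPLOC4 and UFD1 adaptors extracts it, the deglycosylase NGLY1 strips its sugars, and the protease DDI2 cuts it. When the proteasome is inhibited, the cut form escapes destruction, enters the nucleus and raises transcription of proteasome genes, a recovery known as bounce-back. In myeloma cells, which make large amounts of secreted protein, this route is known for its part in the response to proteasome inhibitors. These steps act on protein, so transcript levels report neither the cutting nor the activity of NRF1. They give the transcripts of the parts and of its known targets.

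NRF1 binds DNA at antioxidant response elements, whose core was searched for as TGACNNNGC on either strand. RefSeq promoter windows (GRCh38.p14, 250 bases before to 50 after each listed start) were matched by symbol for 8 of the 9 genes, and UFD1 had no match. The core was present in 3 of the 13 windows, those of VCP, UBQLN1 and USP14, against 13.3% of 35116 windows of the same length. By gene it was found in 3 of 8 (37.5%), against 16.1% of 27305 genes. A gene with more windows had more room for a match. In the lists of related genes described below, the share by gene ran from 12.5% (other VCP cofactors) to 58.3% (proteasome assembly factors and activators). Among 28 genes of the 20S and 19S proteasome with a window, 9 (32.1%) held it. The stretches below are shown because they place the element in genes of the route beside genes of the proteasome, known targets of NRF1. Capitals mark the core, each line reads along the strand on which the core lies, and the 3 proteasome genes were picked after the matches were seen.
VCP: tgcggccaatTGACGTGGCgttactaggc
UBQLN1: cagccggggaTGACTCGGCgacgccgcca
USP14: ccactggcgaTGACGCAGCaacacgcaaa
PSMA4: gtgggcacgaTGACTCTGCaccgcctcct
PSMC5: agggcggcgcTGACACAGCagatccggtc
PSMD12: agacaaaaccTGACGCTGCaggctggagt
These are chr9:35072796-35072824 (minus strand) for VCP, chr9:83708016-83708044 (minus) for UBQLN1, chr18:158521-158549 (minus) for USP14, chr15:78540650-78540678 (plus) for PSMA4, chr17:63827654-63827682 (minus) for PSMC5 and chr17:67366724-67366752 (minus) for PSMD12. The middle of the core lay 185 bases before the listed RefSeq start in VCP, 72 in UBQLN1 and 22 in USP14, where it ran opposite to the gene. The GENCODE gene spans given below begin further upstream, so by those spans the 3 cores lie inside the genes. A match of letters is not a measured binding site, and its absence from a window says nothing about NRF1.

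The line's identity was checked on marker genes: 10 of 10 plasma cell and myeloma markers had values. SLAMF7, a surface receptor of plasma cells, was near 0 in WT (0.282 and 0.198 FPKM) and rose to 22.1 and 18.7 FPKM in CfzR (limma adjusted p = 5.25e-04), while the other 9 markers had WT means of at least 14.9 FPKM and did not pass. No other gene of the marker or pathway lists passed, and the listed T, NK and myeloid markers are not analysed here. Of 6 stromal and 5 epithelial markers, 1 and 2 had values, with WT means of at most 4.82 FPKM, and none passed the test described below (lowest adjusted p = 0.283, limma). CfzR replicate 1 stood apart from the other libraries: its excess over CfzR replicate 2 followed transcript length across 12896 genes (Spearman 0.466, against 0.146 for the WT pair; genes are not independent replicates). Its FPKM summed to 673265, against 877849 to 955284 in the other 3 libraries, and the read depth behind the values is unknown. For scale, ABCB1, a drug efflux pump, rose from 0.953 ± 0.455 to 248 ± 28.1 FPKM (SD, n = 2 each; limma adjusted p = 5.15e-05).

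Values are FPKM, a fragment count divided by transcript length and library size, so levels may be compared between genes per unit length. The comparison asks whether transcript levels of NFE2L1 and of the machinery that processes NRF1 differ between CfzR and WT cells. In these libraries none of the 9 genes passed the threshold, an adjusted p of 0.05 from limma with Benjamini-Hochberg adjustment over all genes tested. Adjusted p ran from 0.558 (USP14) to 0.958 (DDI2), and no member had an unadjusted p under 0.05. Across all genes tested, 0.350% passed (0.246% higher and 0.104% lower in CfzR), and 11.1% had an unadjusted p under 0.05. At that share a count of 0 among 9 genes is near the background. Whether the replicates are separate cultures is not stated in the labels, and p-values cover no more than the spread among these 4 libraries, possibly a technical one. In bulk RNA, fewer cells with a transcript and less of it per cell cannot be told apart.

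The highest transcript of the group was VCP, the segregase that unfolds its substrates, and the lowest was DDI2, the protease. In WT the means fell from VCP (96.5 FPKM) through NGLY1 (42.6), NPLOC4 (40.7), UBQLN1 (39.96), NFE2L1 (26.4), RAD23B (26.04), UFD1 (25.2) and USP14 (12.98) to DDI2 (3.61). VCP stood first, NGLY1 second, USP14 eighth and DDI2 last in each of the 4 libraries. Neighbours whose library values overlapped were NPLOC4 with UBQLN1 and RAD23B with UFD1 in WT, and NGLY1 with UBQLN1, UBQLN1 with NPLOC4, UFD1 with NFE2L1 and NFE2L1 with RAD23B in CfzR. Against all 15201 genes, VCP lay between the 91.0 and 91.6 percentiles over the 4 libraries, and DDI2 between the 31.7 and 37.9 percentiles.

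**Figure D1:**
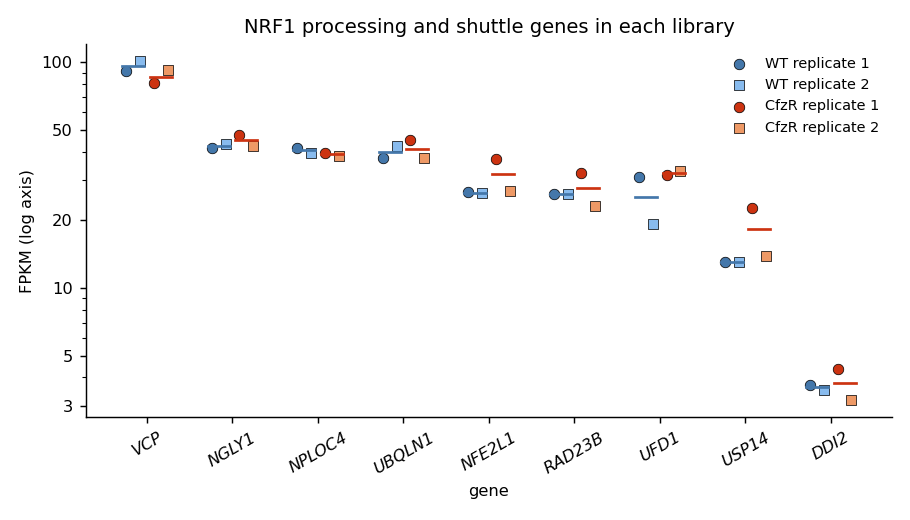
FPKM on a log axis for the 9 genes, ordered by their WT mean. Blue points are the 2 WT libraries, red and orange points the 2 CfzR libraries, and short lines the group means. VCP is highest and DDI2 lowest in every library, and the CfzR replicate 1 points of NFE2L1 and USP14 stand above the other 3 libraries.

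NFE2L1, the factor itself (ENSG00000082641, chromosome 17, 48048329 to 48061487, plus strand), stood at 26.5 and 26.3 FPKM in WT replicates 1 and 2. In CfzR it stood at 37.1 and 26.9 FPKM in replicates 1 and 2. The groups did not overlap, but CfzR replicate 2 lay close to WT and the separation rested on CfzR replicate 1. Means were 26.4 ± 0.145 and 32.0 ± 7.20 FPKM (SD, n = 2 each), a ratio of 1.21. The log2 fold change, on the log2(FPKM + 1) scale used throughout for differences, was 0.25 (SE 0.22, 95% interval -0.27 to 0.77, limma adjusted p = 0.670). Without CfzR replicate 1 it was 0.03, and without CfzR replicate 2 it was 0.48.

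DDI2, the aspartic protease that cuts NRF1 (ENSG00000197312, chromosome 1, 15617500 to 15669044, plus strand), measured 3.70 and 3.51 FPKM in the WT libraries and 4.36 and 3.17 FPKM in the CfzR libraries. The CfzR libraries lay on either side of WT. The log2 fold change was 0.04 (SE 0.23, 95% interval -0.51 to 0.58, limma adjusted p = 0.958), and it was -0.15 without CfzR replicate 1. In the GENCODE annotation the coding gene RSC1A1 (15659869 to 15661722) lies wholly inside DDI2 on the same strand and is not analysed here. How the authors divided reads between them is not stated, so the level of DDI2 is uncertain. Within a library NFE2L1 exceeded DDI2 by 7.16 and 7.49 times in WT, against 8.51 and 8.50 times in CfzR.

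NGLY1, the N-glycanase that removes sugars from NRF1 after extraction (ENSG00000151092, chromosome 3, 25718944 to 25790039, minus strand), measured 41.8 and 43.4 FPKM in the WT libraries and 47.4 and 42.7 FPKM in the CfzR libraries. The ranges overlapped. Its log2 fold change was 0.08 (SE 0.19, 95% interval -0.37 to 0.53, limma adjusted p = 0.887). The oppositely oriented gene OXSM (25782917 to 25794534), a mitochondrial fatty acid synthesis enzyme, overlaps its start and stood between 18.998 and 24.687 FPKM. The use of strand in counting is not known, so reads in the shared stretch cannot be assigned with certainty.

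Transcripts of the 3 parts of the extraction machine stood at unequal levels, which gives no ratio of the proteins. VCP (ENSG00000165280, chromosome 9, 35056064 to 35073249, minus strand) measured 91.6 and 101 FPKM in the WT libraries and 80.7 and 92.0 FPKM in the CfzR libraries. The lowest value was CfzR replicate 1, and CfzR replicate 2 lay within the WT range. The log2 fold change was -0.16 (SE 0.21, 95% interval -0.65 to 0.33, limma adjusted p = 0.771).

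NPLOC4, the adaptor that docks ubiquitin chains on VCP (ENSG00000182446, chromosome 17, 81556887 to 81648465, minus strand), measured 41.7 and 39.7 FPKM in the WT libraries and 39.6 and 38.3 FPKM in the CfzR libraries. Both CfzR values lay below both WT values, by less than 0.1 FPKM between the nearest libraries. Its log2 fold change was -0.06 (SE 0.19, 95% interval -0.50 to 0.38, limma adjusted p = 0.913).

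UFD1, the partner of NPLOC4 in the same adaptor (ENSG00000070010, chromosome 22, 19449910 to 19479215, minus strand), measured 31.1 and 19.2 FPKM in the WT libraries and 31.6 and 32.8 FPKM in the CfzR libraries. Here the spread lay in WT: WT replicate 1 was close to the CfzR libraries and WT replicate 2 stood apart. Means were 25.2 ± 8.41 and 32.2 ± 0.830 FPKM (SD, n = 2 each), and the log2 fold change was 0.38 (SE 0.26, 95% interval -0.22 to 0.99, limma adjusted p = 0.586). It was 0.05 without WT replicate 2 and 0.72 without WT replicate 1. Within each library, VCP exceeded NPLOC4 by 2.20 and 2.55 times in WT, against 2.04 and 2.40 times in CfzR. NPLOC4 exceeded UFD1 by 1.34 and 2.06 times in WT, against 1.25 and 1.17 times in CfzR. NPLOC4 overlaps TSPAN10 on the opposite strand (0.957 to 1.47 FPKM), and UFD1 overlaps 3 antisense genes that measured at most 2.46 FPKM.

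**Figure D2:**
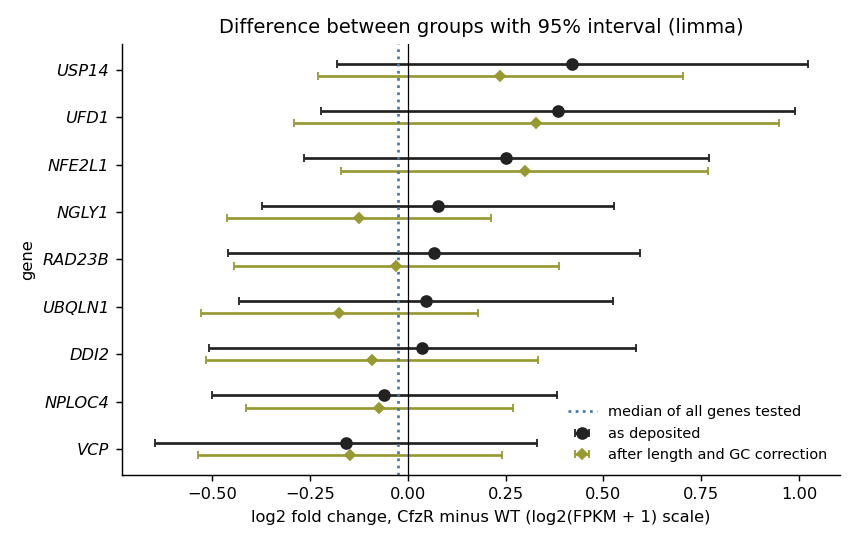
Log2 fold change of each gene (CfzR minus WT) with its 95% interval from limma, for the deposited values (black) and after correction for transcript length and GC share (olive). The dotted line is the median of all genes tested, and every interval spans 0.

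The shuttles bind ubiquitin chains at one end and the proteasome at the other. RAD23B (ENSG00000119318, chromosome 9, 107283137 to 107332194, plus strand) measured 25.97 and 26.1 FPKM in the WT libraries and 32.4 and 23.0 FPKM in the CfzR libraries. WT lay between the CfzR libraries, and the log2 fold change was 0.07 (SE 0.22, 95% interval -0.46 to 0.59, limma adjusted p = 0.921). It was -0.17 without CfzR replicate 1. UBQLN1 (ENSG00000135018, chromosome 9, 83659963 to 83708203, minus strand), which also guards hydrophobic proteins, measured 37.5 and 42.4 FPKM in the WT libraries and 45.1 and 37.7 FPKM in the CfzR libraries. The groups overlapped, and the log2 fold change was 0.05 (SE 0.20, 95% interval -0.43 to 0.52, limma adjusted p = 0.939). GENCODE lists 3 processed pseudogenes of RAD23B and 1 of UBQLN1 by name, which share sequence with them and are not analysed here. UBQLN1 also overlaps the antisense gene AL354920.1 (2.04 to 2.82 FPKM) at its start.

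USP14, a deubiquitinase that docks on the proteasome and trims ubiquitin from arriving substrates (ENSG00000101557, chromosome 18, 158383 to 214629, plus strand), had the largest ratio of means among the 9 genes. It measured 12.953 and 13.003 FPKM in the WT libraries and 22.5 and 13.9 FPKM in the CfzR libraries. Both CfzR values lay above WT, with CfzR replicate 2 close to it. Means were 12.98 ± 0.0350 and 18.2 ± 6.09 FPKM (SD, n = 2 each), a ratio of 1.40, with a log2 fold change of 0.42 (SE 0.25, 95% interval -0.18 to 1.02, limma adjusted p = 0.558). Without CfzR replicate 1 it was 0.09. Without CfzR replicate 2 it was 0.75 (adjusted p = 0.0952, the lowest of the alternatives, which reach 0.9997), a fit in which the lone CfzR library is assumed to vary like WT. Its end overlaps THOC1 (214520 to 268050), an mRNA export gene on the opposite strand, which stood between 13.1 and 25.1 FPKM.

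As a group, 7 of the 9 genes had a log2 fold change above 0 and 2 below, and the median was 0.07, beside a median of -0.02 and 47.1% positive over all genes tested. The groups did not overlap for 3 members in the higher direction (NFE2L1, UFD1, USP14) and 1 in the lower (NPLOC4), 44.4% in all. Over all genes tested this share was 44.7% (22.1% higher and 22.6% lower), so the members' share was near the background. With quantile normalization the signs of VCP (0.0132), NPLOC4 (0.0488) and DDI2 (-0.0177) turned. With length and GC corrected, 3 members (NFE2L1, UFD1, USP14) were above 0 and 6 below, beside 48.9% positive over all genes. The intervals bound the difference: the highest upper limit was 1.02 (USP14) and the lowest lower limit -0.65 (VCP), and every interval held 0. These intervals do not show that the genes were alike in the groups.

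The members' positive median rested on 1 library. Relative to the WT mean, their median was 0.22 for CfzR replicate 1 against -0.07 for replicate 2. Of the 9, 7 were higher in replicate 1 than in replicate 2, and the exceptions were VCP and UFD1. Over all genes tested, 6090 of 13411 were higher in replicate 1, with a median log2 difference of -0.06. The median absolute log2 difference between replicates was 0.25 for the members in CfzR and 0.06 in WT, beside 0.32 and 0.18 over all genes tested. The longest annotated transcripts of the members were between 3196 bases (NGLY1) and 10625 bases (DDI2). After a correction for length and GC share, the members' median difference between the CfzR replicates was 0.00 in place of 0.25. That of NFE2L1 was 0.45 both before and after, and that of USP14 was 0.43 in place of 0.66. The corrected log2 fold changes were 0.30 for NFE2L1, 0.24 for USP14 and 0.33 for UFD1, and the median over the 9 genes was -0.07, with no member past the threshold.

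**Figure D3:**
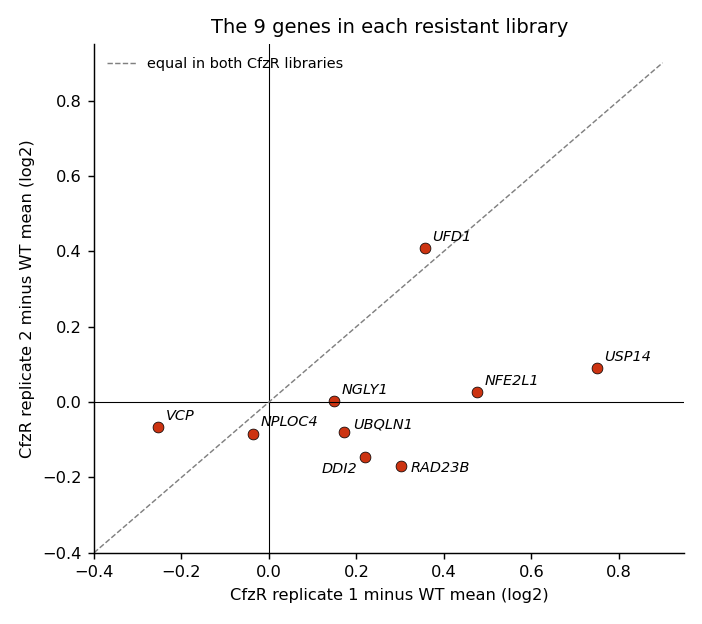
Log2 difference of each CfzR library from the WT mean for the 9 genes, replicate 1 on the horizontal and replicate 2 on the vertical axis. The dashed line marks equal values. UFD1 alone is raised by a like amount in both libraries, while USP14 and NFE2L1 lie far to the right and near 0 on the vertical axis.

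NFE2L1 has 2 relatives in the table that bind the same DNA element. NFE2L2 (NRF2), the main oxidative stress factor, measured 32.7 and 36.6 FPKM in the WT libraries and 38.1 and 36.6 FPKM in the CfzR libraries (log2 fold change 0.11, SE 0.19, limma adjusted p = 0.831). NFE2L3 (NRF3), which like NRF1 is an ER membrane protein, measured 4.24 and 3.49 FPKM in the WT libraries and 10.4 and 9.04 FPKM in the CfzR libraries. Both CfzR libraries lay well above both WT libraries. Means were 3.87 ± 0.530 and 9.73 ± 0.977 FPKM (SD, n = 2 each), a ratio of 2.51, with a log2 fold change of 1.14 (SE 0.21, 95% interval 0.64 to 1.64). It did not pass over all genes (unadjusted p = 9.84e-04, limma adjusted p = 0.115). Leaving out any 1 library gave 1.03 to 1.25, and the length and GC correction gave 1.10. Within a library the ratio of NFE2L1 to NFE2L3 was 6.24 and 7.52 in WT, against 3.56 and 2.98 in CfzR. That of NFE2L1 to NFE2L2 was 0.811 and 0.718 in WT, against 0.973 and 0.735 in CfzR.

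**Figure D4:**
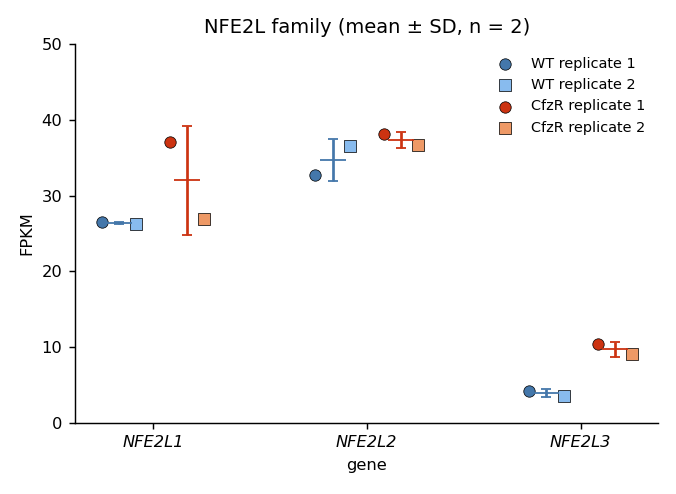
FPKM of NFE2L1, NFE2L2 and NFE2L3 in each library, with mean ± SD for n = 2 per group. NFE2L3 is the lowest of the 3 in every library, at 3.49 to 4.24 FPKM in WT and 9.04 to 10.4 in CfzR.

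The partners and turnover genes of NRF1 held no member past the threshold among 16 tested (8 positive, 8 negative, median 0.01, 2 at an unadjusted p under 0.05). Besides NFE2L3 the second was CUL1, the scaffold of the SCF ubiquitin ligases that mark nuclear NRF1 for destruction. It measured 47.1 and 48.9 FPKM in the WT libraries and 34.9 and 28.9 FPKM in the CfzR libraries, without overlap (log2 fold change -0.58, SE 0.20, limma adjusted p = 0.350). For BTRC, a substrate receptor of that ligase, the log2 fold change was -0.30 (adjusted p = 0.661). BTRC was low, at 2.36 and 3.52 FPKM in the WT libraries and 2.30 and 2.05 FPKM in the CfzR libraries. Without WT replicate 2 its log2 fold change was -0.08. The other listed parts of such ligases, named after their values were seen, differed in sign: 0.29 for SKP1, -0.07 for RBX1 and -0.26 for FBXW7. BACH1, a repressor at the same DNA element, had 0.45 (adjusted p = 0.501), and MAFG, a small partner with which NRF1 pairs on DNA, had 0.19 (adjusted p = 0.704).

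Genes of ER-associated degradation, the route by which NRF1 leaves the membrane, likewise held 0 of 17 past the threshold (11 positive, median 0.06, 1 at an unadjusted p under 0.05). The ligase SYVN1, which ubiquitinates NRF1, measured 39.2 and 39.8 FPKM in the WT libraries and 41.6 and 48.6 FPKM in the CfzR libraries (log2 fold change 0.18, limma adjusted p = 0.724). Its partner SEL1L measured 12.7 and 10.3 FPKM in the WT libraries and 19.8 and 14.3 FPKM in the CfzR libraries (0.52, adjusted p = 0.468). EDEM1, a lectin that sorts misfolded glycoproteins, measured 29.3 and 29.5 FPKM in the WT libraries and 53.8 and 42.2 FPKM in the CfzR libraries (0.68, SE 0.21, adjusted p = 0.302). For all 3 the groups did not overlap, as was so for 41.2% of this list and 44.7% of all genes tested. The lowest log2 fold changes were those of the signal peptide peptidase HM13 (-0.44) and the VCP anchor UBXN4 (-0.31), with overlapping groups.

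Other cofactors of VCP gave 0 of 18 past the threshold, with 10 positive, a median of 0.11 and 1 at an unadjusted p under 0.05. That gene was YOD1, a deubiquitinase of extracted substrates, at 1.74 and 2.32 FPKM in the WT libraries and 4.67 and 3.19 FPKM in the CfzR libraries (log2 fold change 0.69, SE 0.26, limma adjusted p = 0.394). NSFL1C, the adaptor that VCP uses in membrane fusion in place of NPLOC4 and UFD1, measured 9.999 and 8.31 FPKM in the WT libraries and 11.4 and 9.95 FPKM in the CfzR libraries (0.20, adjusted p = 0.714). The lowest values were those of UBXN6 (-0.46) and UBXN11 (-0.44).

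Paralogues of UBQLN1 did not pass either, and the list of other shuttles and proteasome-bound enzymes had 0 of 14 past the threshold (9 positive, median 0.13, 0 at an unadjusted p under 0.05). UBQLN1 exceeded UBQLN2 by 3.25 and 3.61 times in WT, against 2.90 and 3.41 times in CfzR. UBQLN4, another ubiquilin, measured 26.8 and 28.8 FPKM in the WT libraries and 22.3 and 20.7 FPKM in the CfzR libraries, without overlap (log2 fold change -0.36, SE 0.19, limma adjusted p = 0.517). Reads of close paralogues can be shared, so their ratios are uncertain. For UCHL5, a deubiquitinase of the proteasome like USP14, the log2 fold change was 0.35 (adjusted p = 0.568), and for ECPAS, a proteasome scaffold, 0.47 (adjusted p = 0.549).

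Transcripts of the proteasome, whose genes are known targets of NRF1, showed no member past the threshold. NRF1 activity was not measured, so these values do not show whether bounce-back took place. The genes tested were 13 of the 20S core, 18 of the 19S particle and 11 assembly factors and activators. Median log2 fold changes were -0.13 (0.111 with quantile normalization), 0.03 and 0.02, with 3 of 13, 10 of 18 and 6 of 11 positive, and with 0, 2 and 0 at an unadjusted p under 0.05. The pair in the 19S particle, 11.1% of its genes as over all genes tested, differed in sign and did not pass. PSMC3, an ATPase of the base, measured 59.8 and 59.2 FPKM in the WT libraries and 81.1 and 85.8 FPKM in the CfzR libraries (0.48, SE 0.19, limma adjusted p = 0.428). PSMD6, a lid subunit, measured 32.1 and 35.4 FPKM in the WT libraries and 21.98 and 22.1 FPKM in the CfzR libraries (-0.59, SE 0.19, adjusted p = 0.317).

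The 20S core differed between the resistant libraries: its median relative to WT was -0.34 for CfzR replicate 1 against 0.13 for replicate 2. In replicate 1, 1 of 13 genes was higher than in replicate 2, beside 6090 of 13411 over all genes tested. The 20S transcripts are short, with a median of 1939 bases, against 4921 bases for the 9 members, whose replicate difference ran the other way. Within the 9 members the Spearman correlation of that difference with length was -0.03, against 0.466 over all genes with a known length. The correction takes length and GC share together, and a cause of the difference was not tested. The median difference between the CfzR replicates was -0.47 for the 20S core, or -0.33 with length and GC corrected. The catalytic subunit PSMB5, the target of carfilzomib, measured 107 and 131 FPKM in the WT libraries and 76.9 and 117 FPKM in the CfzR libraries, so the ranges overlapped. Of the proteasome genes with a printed core, PSMA4, PSMC5 and PSMD12 showed log2 fold changes of -0.02, 0.13 and 0.08 (limma adjusted p = 0.978, 0.791 and 0.913), beside -0.16, 0.05 and 0.42 for VCP, UBQLN1 and USP14.

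Antioxidant, stress and lipid genes linked to NRF1 gave 0 of 11 past the threshold (7 positive, median 0.15, or -0.03 with a minimum mean of 5 FPKM). At an unadjusted p under 0.05 there were 3, each lower in CfzR without overlap, beside 11.1% of all genes tested in either direction. Groups did not overlap for 72.7% of this list, 5 genes higher and 3 lower, beside 44.7% of all genes tested. The metal-binding metallothionein MT1X measured 193 and 186 FPKM in the WT libraries and 71.2 and 133 FPKM in the CfzR libraries (log2 fold change -0.96, SE 0.31, limma adjusted p = 0.334). MT2A, of the same family, measured 339 and 347 FPKM in the WT libraries and 163 and 218 FPKM in the CfzR libraries (-0.86, SE 0.25, adjusted p = 0.283). HMOX1, the haem-degrading enzyme, named after its values were seen, measured 19.95 and 17.7 FPKM in the WT libraries and 10.04 and 12.2 FPKM in the CfzR libraries (-0.71, SE 0.20, adjusted p = 0.274). On the other side, GCLM, a subunit of the rate-limiting enzyme of glutathione synthesis, had 0.40 (adjusted p = 0.580) and GABARAPL1, an autophagy protein, had 0.35 (adjusted p = 0.542).

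**Figure D5:**
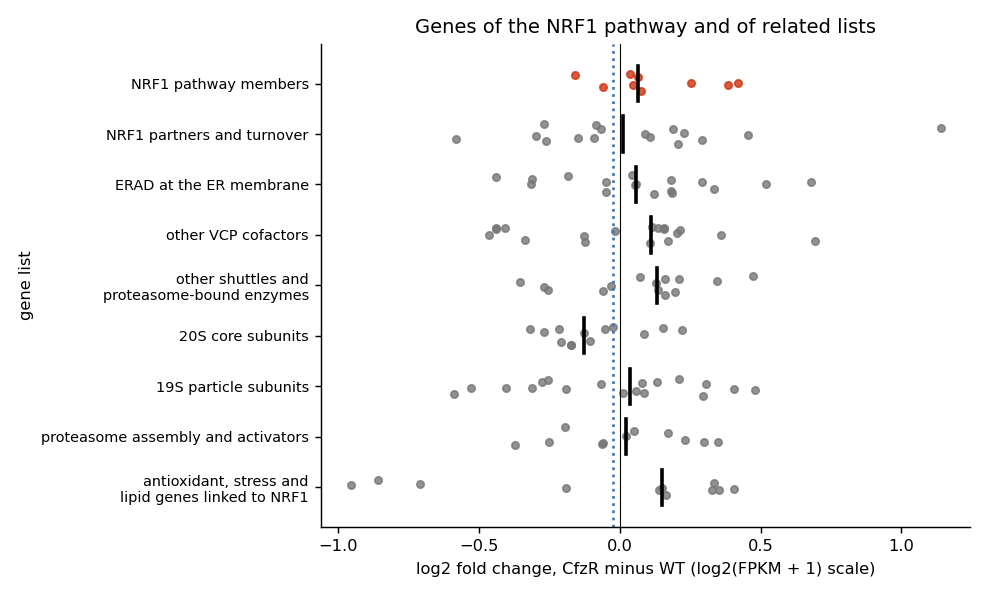
Log2 fold change (CfzR minus WT) of every tested gene in the 9 pathway genes (red) and in 8 related lists (grey), with the list median as a black bar and the median of all genes tested as a dotted line. The point at 1.14 among the partners is NFE2L3, and the 3 lowest points at the bottom are MT1X, MT2A and HMOX1.

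Among 123 other tested genes of these lists, the 5 whose log2 values deviated across the 4 libraries most like NFE2L1 were UBQLN2, UBE2J1, UBXN2B, UCHL5 and UBXN7. Their root mean square differences from NFE2L1 were 0.05, 0.05, 0.06, 0.06 and 0.06 on the log2 scale. CfzR replicate 1 was the highest library in each of them, which choosing genes by likeness to NFE2L1 largely fixes.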

How the data were processed

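RNA sequencing libraries of ARP-1 cells were analysed, 2 of WT and 2 of CfzR. The authors deposited 1 table of FPKM values with 15201 Ensembl genes. Per the submitters' processing notes the tools were STAR and Cufflinks. Their versions, and the genome build, annotation and strand use, are not stated there. The columns named for a control were taken as WT, the only other group. The lowest row mean was 0.500 FPKM. Depth is unknown, so no counting error is given.

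From these values, log2(FPKM + 1) was tested where a gene's mean reached 1 FPKM, using limma 3.58.1 in R 4.3.3 with a mean-variance trend and two-sided tests. The procedure was tested on simulated data whose planted changes were far larger than the members' differences, so it gives no power for differences of their size. Symbols matched 15027 IDs. Positions are those of GENCODE 29 (GRCh38), matched by ID, not coordinates of the authors. Promoter sequences are from RefSeq (GRCh38.p14). For the correction, length and GC share were those of the longest GENCODE transcript (96.2% of genes tested), and spline trends with 4 degrees of freedom were removed per library.

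The text names the 9 members, a fixed set of relatives, the 2 highest and 2 lowest genes per list, any list gene past the threshold and the 5 genes most like NFE2L1; not every gene so selected is described, and a gene of the fixed set is not reported here. Members and lists were chosen with earlier results of these data known. The alternatives used a pseudocount of 0.1 or of 5, all genes without a filter, a minimum mean of 5 FPKM, trimmed mean of M-values (TMM) scaling, quantile normalization, no trend, a replicate block, the length and GC correction, and leaving out each library.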

Additional observations from a re-analysis of the deposited data

How the results depend on the processing

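The count of members past the threshold was 0 under all 13 alternatives. The count of members whose groups did not overlap, 4 in the deposited values, was 6 after correction for length and GC and 3 with TMM scaling, where the share over all genes was 47.2% and 44.7%. The count of all genes past the threshold, 47, was 27 with a filter at 5 FPKM, where fewer genes are tested, and ran from 16 to 260 with 1 library left out. With the replicate number as a block it was 1242 (487 higher, 755 lower), with 1 residual degree of freedom left for each gene. Same-numbered libraries deviated together across genes with r = 0.252 over 2 pairs, and the labels say nothing of a shared day or culture, so the numbers do not establish pairing. Among the 51 named genes followed through the alternatives, NFE2L3, EDEM1, MT1X and MT2A newly passed with the block (limma adjusted p = 9.48e-05, 0.0206, 0.00122 and 0.0129). In that fit the SE was 0.212 for each of NFE2L1, UFD1 and EDEM1, against 0.219, 0.256 and 0.206 in the main fit. The block p-values thus rest largely on a spread pooled over genes, not on each gene's own replicates. HMOX1, SLAMF7 and some other genes described above were not among those followed. DDI2 drops out under the filter at 5 FPKM. Signs of differences that had not passed turned, PSMD4 (-0.53) among them, and the cause was not tested. Quantile normalization gave 0.111 for the median of 20S, -0.0177 for DDI2, 0.0488 for NPLOC4 and 0.0132 for VCP. Correcting for length and GC gave -0.0737 for the median of the members, -0.0365 for the median of VCP cofactors, -0.0504 for the median of shuttles, -0.0347 for the median of 19S, -0.0916 for DDI2, -0.125 for NGLY1, -0.0293 for RAD23B, -0.175 for UBQLN1, -0.0290 for PSMA6 and -0.132 for PSMD14. The 5 FPKM filter gave -0.0275 for the median of antioxidant genes. With 1 library left out, the median of the members ran from -0.0659 to 0.219 (turned without CfzR replicate 1), the median of partners ran from -0.0278 to 0.0961 (turned without WT replicate 1 or CfzR replicate 2), the median of VCP cofactors ran from -0.0730 to 0.299 (turned without CfzR replicate 1), the median of 20S ran from -0.337 to 0.128 (turned without WT replicate 2 or CfzR replicate 1). Likewise the median of 19S ran from -0.0250 to 0.0513 (turned without WT replicate 1 or WT replicate 2), the median of assembly ran from -0.0363 to 0.0816 (turned without WT replicate 1 or CfzR replicate 2), DDI2 ran from -0.145 to 0.219 (turned without CfzR replicate 1), RAD23B ran from -0.171 to 0.303 (turned without CfzR replicate 1), UBQLN1 ran from -0.0789 to 0.172 (turned without WT replicate 1 or CfzR replicate 1). Further, PSMA3 ran from -0.683 to 0.142 (turned without WT replicate 2 or CfzR replicate 1), PSMD4 ran from -1.13 to 0.0701 (turned without CfzR replicate 1), PSMG4 ran from -0.536 to 0.0322 (turned without CfzR replicate 1), UBQLN2 ran from -0.0660 to 0.388 (turned without CfzR replicate 1) and UBXN7 ran from -0.0630 to 0.492 (turned without CfzR replicate 1). Of 659 values of 51 named genes under the alternatives, 636 kept their sign and side of the threshold. This count is no measure of stability. Changing the filter, the trend or the block leaves a gene's log2 fold change as it was, so no sign could turn there. Only ABCB1 of these genes had passed in the deposited values, so the side of the threshold was largely fixed for the rest.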
